A study of Rattus norvegicus with 3 samples.

Results

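Aminoacyl-tRNA synthetases are the enzymes that load each amino acid onto its tRNA, and 39 of the 12771 gene entries in the data belonged to them or to the scaffold proteins that hold some of them together. The members were found by gene symbol. They were every symbol of 1 letter followed by ARS with or without a number, the 2 subunits of the phenylalanine enzyme (FARSA and FARSB), the double enzyme EPRS, and the scaffold proteins AIMP1, AIMP2 and EEF1E1. They comprised 20 cytosolic synthetases, 16 mitochondrial synthetases and 3 scaffold proteins. RARS2 and TARS3 were not analysed here. RNA came from spinal cord of female Sprague Dawley rats, 3 months old, of no stated genetic modification. All rats had a laminectomy at T9, which was followed by a contusion in the SCI group and by nothing further in the No-SCI group. At 24 h a short piece of cord just rostral to the lesion was digested in the cold with a protease, cells were spun down, and the RNA of the supernatant was sequenced after ribosomal RNA was removed. The supernatant was meant to be enriched for RNA of axons, but it can hold RNA from any cell of the cord that broke open.

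Protein synthesis in the cytosol and in mitochondria uses separate sets of tRNAs, and most amino acids have 1 nuclear gene for each compartment. By convention the cytosolic enzyme carries a 1 or no number and the mitochondrial enzyme a 2. KARS and GARS serve both compartments from a single gene, and they are counted here as cytosolic. The cytosolic enzymes for glutamate and proline (fused in EPRS), isoleucine, leucine, methionine, glutamine, arginine and lysine, among others, assemble with the 3 scaffold proteins into the multisynthetase complex. The enzymes fall into class I and class II, which have unrelated catalytic folds. Axons translate mRNA locally, and several synthetase genes are known for inherited neuropathies of long axons, GARS, YARS1 and AARS1 among them. AIMP2 and TARS3 end in a number but work in the cytosol, so AIMP2 was kept out of the mitochondrial class.

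Each entry of the authors' table holds a single No-SCI value and a single SCI value, in FPKM, a scale in which sequenced fragments are divided by transcript length and library size. By the labels the No-SCI group has 2 libraries and the SCI group 1, while the study's methods give 2 animals per condition. No value for a single library was given, so the spread between animals is unknown, no test between the groups was run, and every difference described is one between 2 group values. The study's methods state a read depth per sample, but the table holds no counts, so the reads behind a value cannot be given. The median log2 ratio of SCI to No-SCI over all entries was −0.12, and the quartiles were −0.61 and 0.37. In bulk samples such as these, fewer cells of a type and less RNA per cell cannot be told apart. The lowest value is 1. Of the values from 1 to below 2, 84.7% in No-SCI and 84.3% in SCI had more than 6 significant digits, the number that Cuffdiff writes, and after 1 was subtracted 0 of them did. Values from 10 to below 11 behaved alike, with 0 of 282 and 0 of 303 over 6 digits after the subtraction. A value with 1 digit more than 6 loses a digit there in any case, so the fall to 0 decides nothing. Before the subtraction the share over 6 digits was 79.8% and 81.8% from 10 to below 11. It was 64.9% and 66.4% from 11 to below 12, and 25.6% and 29.2% from 2 to below 9. By the lowest value of 1 and the higher shares just above 1 and 10, the values have the form of estimates to which 1 was added. The log2 ratios of genes at a few FPKM would then be smaller in size than those of the estimates themselves. For several members under 10 FPKM the ratio after subtracting 1 is given too. It is not given for the other members, QARS1 among them, or for genes outside the members. Ratios of such genes at a few FPKM carry this limit.

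The cytosolic synthetases spanned a wide range of levels in No-SCI. There the median level was 27.3 FPKM, from 2.01 FPKM for QARS1 to 181 FPKM for NARS1, and in SCI it was 20.2 FPKM. NARS1 (asparagine), WARS1 (tryptophan) and AARS1 (alanine) were the most abundant, at 181, 130 and 126 FPKM in No-SCI, and after SCI the order was WARS1 (107 FPKM), NARS1 (96.9 FPKM) and SARS1 (76.6 FPKM), with AARS1 at 59.4 FPKM. SARS1 (serine) and EPRS followed in No-SCI with 88.5 and 85.6 FPKM. The glutamine enzyme QARS1 was at percentile 5.62 of all entries, whereas NARS1 was at percentile 91.0. The mitochondrial synthetases were lower as a class, their median level being 8.51 FPKM without and 7.24 FPKM with SCI. Their range in No-SCI ran from 2.15 FPKM for YARS2 to 89.2 FPKM for FARS2, the mitochondrial phenylalanine enzyme. The next of the class was HARS2, at 35.9 FPKM. Without replicate values it cannot be said which neighbours in these orders differ.

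**Figure D1:**
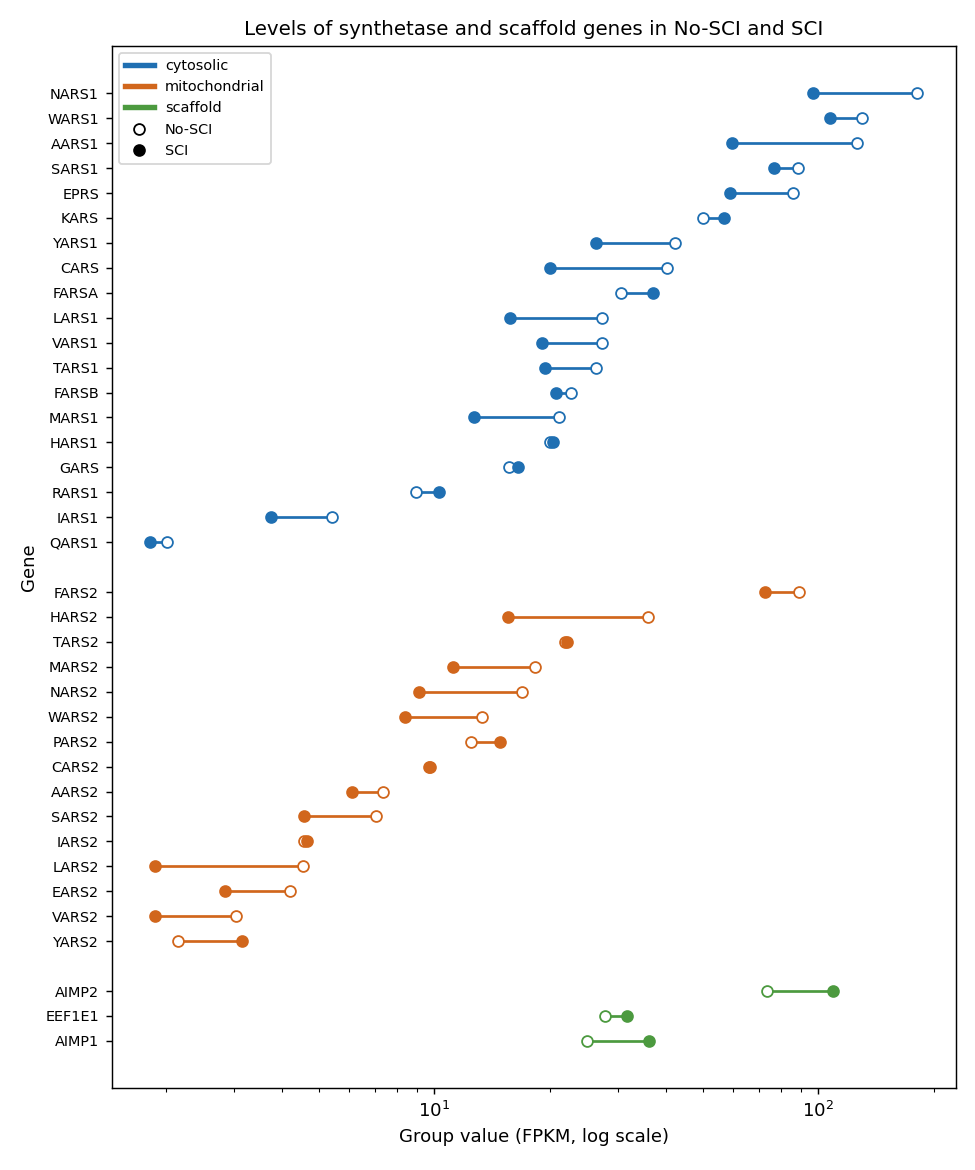
Group values in FPKM (log axis) of the synthetase and scaffold genes reported singly, with No-SCI as open and SCI as filled circles joined by a line. Cytosolic synthetases (blue) reach 181 FPKM for NARS1, mitochondrial synthetases (orange) mostly lie below 20 FPKM apart from FARS2, HARS2 and TARS2, and the 3 scaffold genes (green) are the only class in which every filled circle lies to the right of the open one.

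After SCI most synthetase RNAs were at a lower level, and the scaffold RNAs were at a higher one. Of the 39 members, 26 were lower and 13 higher in SCI than in No-SCI, beside 56.3% of all entries that were lower and 43.7% that were higher. At a fold of at least 1.3, the minimum the study's methods use, 20 members (51.3%) were lower, beside 35.7% of all entries, and 3 (7.69%) were higher, beside 24.6% of all entries. The median log2 ratio of the members was −0.44, which is −0.33 relative to the median of all entries. When that median was set to 0, the counts were 19 lower and 4 higher, beside 30.3% and 30.2% of all entries. At a fold of at least 1.5, 15 members (38.5%) were lower, beside 26.3% of all entries, and 0 were higher, beside 16.9%. At a fold of at least 2, 4 members (10.3%) were lower, beside 12.1% of all entries, and 0 were higher, beside 7.96%, so at this fold the share of lower members was near that of the whole table.

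**Figure D2:**
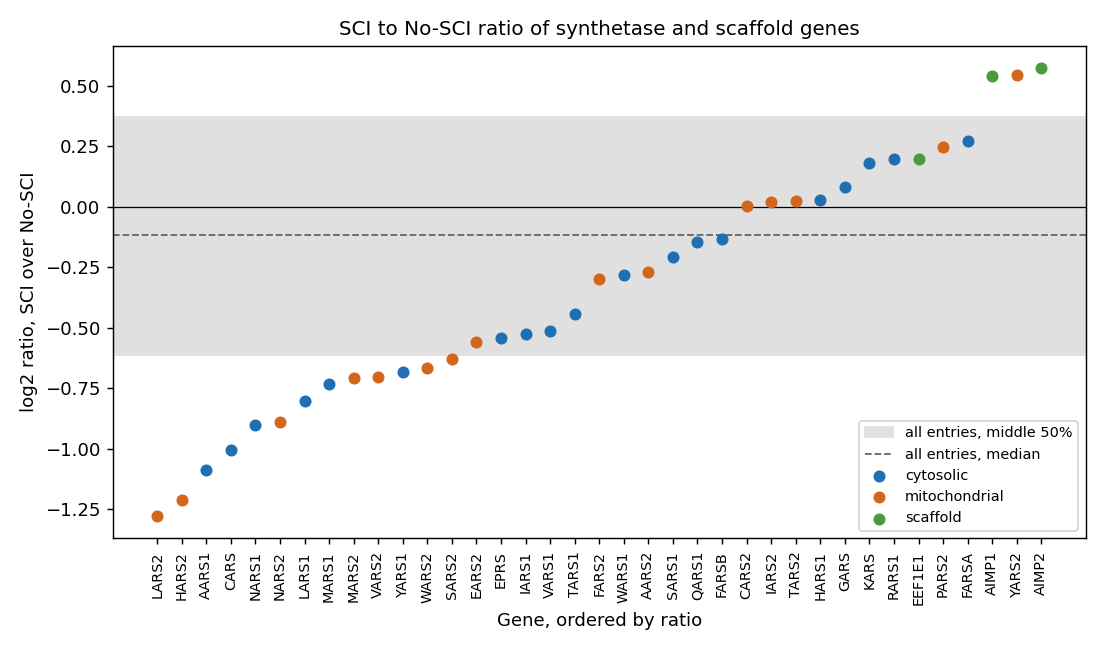
Log2 ratio of SCI to No-SCI for the genes reported singly, ordered from the lowest to the highest and coloured by class, with 0 as a solid line. The grey band spans the quartiles of all entries (−0.61 to 0.37) and the dashed line is their median (−0.12). LARS2, at −1.28, is the lowest, and AIMP1, YARS2 and AIMP2 lie above the band.

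Among the cytosolic synthetases 15 of 20 were lower after SCI, 11 of them by at least 1.3-fold (55.0%, beside 35.7% of all entries), and 0 were higher by that fold (beside 24.6%). Their median log2 ratio was −0.48. It was −0.24 without the members whose values carry more digits than a single estimate, and −0.28 without those that overlap a coding gene. AARS1, which charges the tRNA for alanine, had 126 FPKM in No-SCI and 59.4 FPKM in SCI, a log2 ratio of −1.09. CARS, the cysteine enzyme, stood at 40.3 and 20.05 FPKM, a log2 ratio of −1.01. NARS1 was at 181 and 96.9 FPKM, a log2 ratio of −0.90. These 3 had the lowest ratios of the class, with SCI levels at 47.1%, 49.8% and 53.6% of No-SCI.

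The next cytosolic genes included those for leucine, methionine and tyrosine. LARS1 had 27.4 FPKM in No-SCI and 15.7 FPKM in SCI (log2 ratio −0.80). MARS1 had 21.1 and 12.7 FPKM (log2 ratio −0.73). The tyrosine enzyme YARS1 was at 42.3 FPKM in No-SCI and 26.3 FPKM in SCI, a log2 ratio of −0.68. In the reference MARS1 overlaps DDIT3, a stress-induced transcription factor gene on the opposite strand, and AARS1 overlaps DDX19B on the opposite strand. AIMP2, MARS2, SARS2 and YARS1 also overlap a coding gene there. The libraries kept the strand, but whether strand was used in the counting is not given in the sources used here. DDIT3, chosen for this overlap after its values were seen, was nearly level at 306 FPKM in No-SCI and 301 FPKM in SCI.

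A further 4 cytosolic genes were lower by at least 1.3-fold. EPRS, the fused glutamate and proline enzyme, had 85.6 FPKM in No-SCI and 58.8 FPKM in SCI (log2 ratio −0.54). VARS1, the valine enzyme, had 27.3 and 19.1 FPKM (log2 ratio −0.51). IARS1, the isoleucine enzyme, stood at 5.39 and 3.75 FPKM, for a log2 ratio of −0.52 that becomes −0.68 after 1 is subtracted. TARS1, the threonine enzyme, had 26.4 and 19.4 FPKM (log2 ratio −0.44). The other 9 cytosolic synthetases had less than 1.3-fold between the groups. WARS1, a synthetase known to be induced by interferon, had 130 FPKM in No-SCI and 107 FPKM in SCI, a log2 ratio of −0.28, and SARS1 had 88.5 and 76.6 FPKM, a log2 ratio of −0.21. QARS1 was at 2.01 and 1.82 FPKM, both near the lowest value of the table. FARSA and FARSB, which make up 1 phenylalanine enzyme, had log2 ratios of opposite sign and small size, 0.27 and −0.14, with 30.7 and 22.7 FPKM in No-SCI against 37.0 and 20.7 FPKM in SCI. HARS1, GARS, KARS and RARS1 were nearly level or slightly higher, with log2 ratios of 0.03, 0.08, 0.18 and 0.20. The 2 genes whose products also charge mitochondrial tRNAs, KARS (50.001 and 56.7 FPKM) and GARS (15.6 and 16.5 FPKM), were both in this group.

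Within the multisynthetase complex most enzymes were lower and the scaffolds were higher. The 8 synthetases of the complex had a median log2 ratio of −0.53, with 6 (75%) lower and 2 higher. The 2 higher ones, KARS and RARS1, were so by less than 1.3-fold. The 12 cytosolic synthetases outside the complex had a median of −0.36, with 9 (75%) lower and 3 higher. Of all entries 56.3% were lower. The mean log2 ratios were −0.39 in the complex and −0.41 outside it, so no order of these sets can be read from the medians. The 3 scaffold genes were all higher in SCI, beside 43.7% of all entries, and the median of their log2 ratios was 0.54. By at least 1.3-fold 2 of the 3 were higher, beside 24.6% of all entries, and by at least 1.5-fold 0 were, beside 16.9%. AIMP2, which holds the complex together, had 73.4 FPKM in No-SCI and 109 FPKM in SCI, a log2 ratio of 0.57. AIMP1, which carries a tRNA-binding domain and can also be secreted as a cytokine, had 24.9 and 36.2 FPKM, a log2 ratio of 0.54. EEF1E1 (AIMP3) had 27.7 and 31.8 FPKM, a log2 ratio of 0.20, which is less than 1.3-fold. AIMP2 overlaps EIF2AK1 on the opposite strand in the reference. Summed over the complex, the 11 genes came to 351 FPKM in No-SCI and 352 FPKM in SCI, made up of lower enzyme and higher scaffold values. By catalytic class, 8 of the 9 class I cytosolic enzymes were lower (88.9%, median log2 ratio −0.52). Of class II, 6 of the 10 were lower (60.0%, median −0.17), with EPRS, which has a domain of each, left out. This class II share and median were near those of the whole table, with 56.3% of all entries lower and a median of −0.12. By at least 1.3-fold 4 (40.0%) of class II were lower and 0 higher, beside 35.7% and 24.6% of all entries. For class I 6 (66.7%) were lower and 0 higher by that fold. In mitochondria the medians were −0.61 for the 8 class I and −0.46 for the 8 class II enzymes.

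Mitochondrial synthetases shared the direction of the cytosolic ones. Of the 16, 11 were lower after SCI (68.8%, beside 56.3% of all entries). At a fold of at least 1.3, 9 of the 16 were lower (56.3%, beside 35.7% of all entries) and 1 higher (6.25%, beside 24.6%). Their median log2 ratio was −0.59, which is 0.11 below that of the cytosolic class. This gap between the classes depends on the treatment of low values. It was 0.25 after 1 was subtracted from every value, and its sign turned, to −0.0145, when entries with a mean under 5 FPKM were left out, so no order of the 2 classes can be read from it. With the classes taken strictly by the ending of the symbol, which adds AIMP2 to the mitochondrial side, the gap was 0.08.

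LARS2, the mitochondrial leucine enzyme, had the lowest ratio of all 39 members, with 4.55 FPKM in No-SCI and 1.88 FPKM in SCI, a log2 ratio of −1.28. After 1 is subtracted its log2 ratio is −2.02. HARS2, the mitochondrial histidine enzyme, followed with 35.9 and 15.5 FPKM, a log2 ratio of −1.21. NARS2 (asparagine) had 16.9 and 9.12 FPKM (log2 ratio −0.89), MARS2 (methionine) 18.3 and 11.2 FPKM (−0.71), and WARS2 (tryptophan) 13.3 and 8.39 FPKM (−0.67). VARS2, SARS2 and EARS2, which charge valine, serine and glutamate, were all under 10 FPKM in both groups. Their log2 ratios were −0.70, −0.63 and −0.56 as deposited, and −1.24, −0.76 and −0.79 after 1 is subtracted. Mutations in EARS2 are a known cause of a leukoencephalopathy, a disease of white matter, and EARS2 was at 4.20 FPKM in No-SCI and 2.85 FPKM in SCI.

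FARS2 and AARS2 were lower by less than 1.3-fold. FARS2 had 89.2 FPKM in No-SCI and 72.5 FPKM in SCI, a log2 ratio of −0.30, and was the most abundant of the class in both groups. AARS2 had 7.33 and 6.09 FPKM, a log2 ratio of −0.27. CARS2, IARS2 and TARS2 were level, with log2 ratios of 0.005, 0.02 and 0.02. The proline enzyme PARS2 was higher by less than 1.3-fold, at 12.5 and 14.8 FPKM, a log2 ratio of 0.25. YARS2, the tyrosine enzyme, was the mitochondrial gene with the highest ratio, at 2.15 FPKM in No-SCI and 3.14 FPKM in SCI. Its log2 ratio of 0.55 becomes 0.90 after 1 is subtracted, at a level close to the lowest in the table.

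Partners that charge the same amino acid in the 2 compartments can be set side by side. In 14 of 17 pairings the cytosolic gene had the higher FPKM in No-SCI, with a median ratio of 6.02, and in 13 of 17 it did in SCI, with a median ratio of 4.79. EPRS and FARS2 each enter 2 of these pairings. The widest gaps in No-SCI were 20.4-fold for EPRS over EARS2, 19.6-fold for YARS1 over YARS2 and 17.2-fold for AARS1 over AARS2. After 1 is subtracted from every value these are 26.5, 35.8 and 19.8, so that the tyrosine pair has the widest gap. The phenylalanine enzymes were the other way round, with FARS2 at 2.91 times FARSA and 3.92 times FARSB in No-SCI. Both partners were lower after SCI in 10 pairings, and in the other 7 the signs were opposite.

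Some partners had nearly the same ratio and others did not. For asparagine the log2 ratios were −0.90 (NARS1) and −0.89 (NARS2), for methionine −0.73 (MARS1) and −0.71 (MARS2), and for glutamate −0.54 (EPRS) and −0.56 (EARS2). The widest splits were those of histidine and tyrosine. HARS1 was level, at 19.97 FPKM in No-SCI and 20.4 FPKM in SCI, while HARS2 was at 35.9 and 15.5 FPKM. HARS2 was thus 1.80 times HARS1 in No-SCI, and HARS1 was 1.31 times HARS2 in SCI. These 2 genes lie head to head and their promoter windows in the reference share 243 bases. They are also closely related in sequence, so reads that fit both could have been divided between them. For tyrosine, YARS1 was lower and YARS2 higher, and their ratio in FPKM was 19.6 in No-SCI and 8.38 in SCI, or 35.8 and 11.8 after 1 is subtracted. For cysteine, CARS was lower and CARS2 level, and the ratio went from 4.16 to 2.06.

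**Figure D3:**
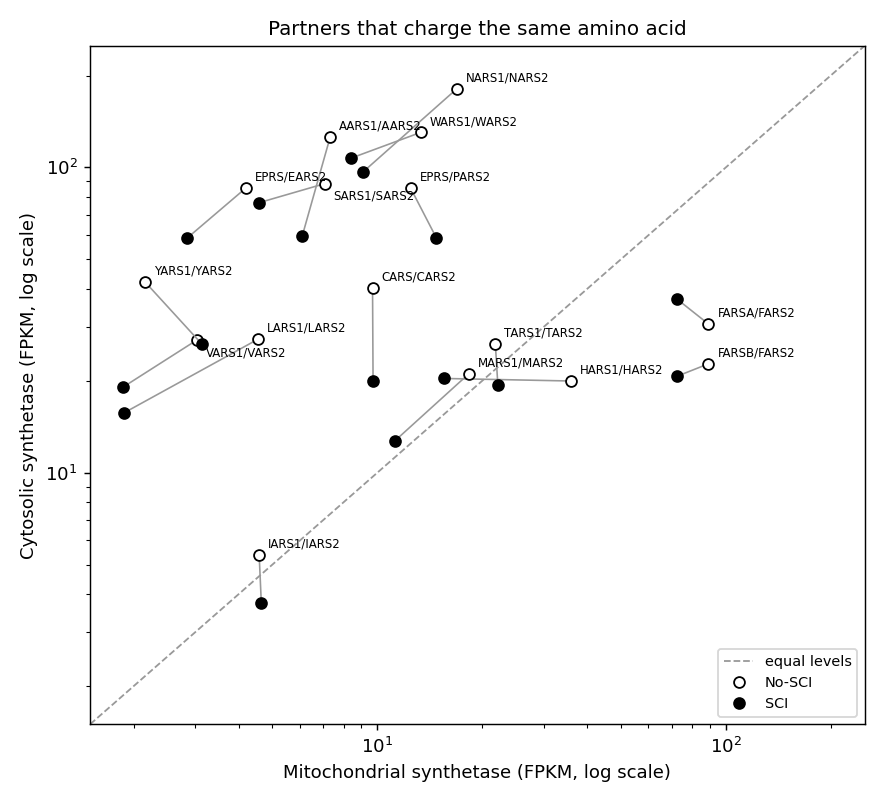
FPKM of the cytosolic synthetase (y) against the mitochondrial synthetase for the same amino acid (x), both on log axes, with No-SCI open, SCI filled and equal levels dashed. In No-SCI the plotted pairings lie above the dashed line except HARS1/HARS2 and both pairings with FARS2. In SCI, HARS1/HARS2 lies above it, and IARS1/IARS2 and TARS1/TARS2 lie below it.

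Cytosolic synthetase genes are textbook targets of ATF4, a transcription factor whose translation rises when uncharged tRNA or other stress activates the eIF2α kinases. It binds the C/EBP-ATF response element, which was searched as TGATGNAAN on both strands in the window from 250 bases before to 50 bases after each gene's start, as RefSeq gives it for the GRCr8 assembly. Promoters were matched for 35 of the 39 members. The motif was in 7 of these 35 promoters (20%), beside 3.80% of 27457 rat promoters and 2.09% of the 9762 promoters matched to entries of the table. All 7 were cytosolic synthetases, namely AARS1, CARS, IARS1, MARS1, NARS1, TARS1 and YARS1, which is 41.2% of the 17 cytosolic promoters, and 0 of 15 mitochondrial promoters had it. All 7 held the shorter form TGATGCAA, which 0.743% of rat promoters have, a form chosen after the matches were seen.

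Sites of 5 genes are shown so that their shared core can be read across genes, in the direction of transcription, with the match in capitals. On this strand the element reads either as written or as its reverse complement, with TTGCATCA as the core.
CARS, GRCr8 chr1:208225335-208225363, minus strand: cggcgccgcgGTTGCATCAgattctggaa
IARS1, GRCr8 chr17:15193659-15193687, minus strand: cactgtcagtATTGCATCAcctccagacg
MARS1, GRCr8 chr7:65023753-65023781, minus strand: gcccgttccgGTTGCATCAgcgtgggctc
TARS1, GRCr8 chr2:62114812-62114840, minus strand: ctggcgtcccGTTGCATCAgctggttagc
YARS1, GRCr8 chr5:146820191-146820212, plus strand: cgagctcagcTGATGCAACctg

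In IARS1, MARS1, TARS1 and NARS1 the match began 25, 18, 28 and 14 bases before the annotated start. In CARS and YARS1 it began 16 and 38 bases after the start. The 120 bases before the start of IARS1 and TARS1 are printed to show where the match lies in them, with the match again in capitals.
IARS1, GRCr8 chr17:15193653-15193772, minus strand: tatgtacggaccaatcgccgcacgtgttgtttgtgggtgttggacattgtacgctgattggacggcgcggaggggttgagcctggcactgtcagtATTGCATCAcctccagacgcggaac
TARS1, GRCr8 chr2:62114803-62114922, minus strand: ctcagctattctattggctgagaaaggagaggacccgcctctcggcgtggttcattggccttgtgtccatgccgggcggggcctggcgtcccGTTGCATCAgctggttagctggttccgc

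The 7 genes with the motif were all lower after SCI by at least 1.3-fold, beside 35.7% of all entries, and 6 of them were once the median of all entries was set to 0, TARS1 being the exception. They had log2 ratios from −1.09 for AARS1 to −0.44 for TARS1 and a median of −0.73. The 28 members with a promoter but no match had a median log2 ratio of −0.24. Of them, 11 (39.3%) were lower by at least 1.3-fold, beside 35.7% of all entries, and 3 (10.7%) were higher, beside 24.6%. With no fold minimum 17 (60.7%) were lower, beside 56.3% of all entries, and 11 higher. The 10 cytosolic synthetases without a match had a median of −0.18, with 3 (30%) lower and 0 higher by at least 1.3-fold. Over the whole table, the 204 entries that have the motif had a median log2 ratio of −0.20, beside −0.14 for the 9558 without it. Of the genes with the motif, CARS, MARS1, NARS1 and TARS1 have values with more digits than a single estimate. AARS1, MARS1 and YARS1 overlap a coding gene, and only IARS1 has neither limit. Of the cytosolic synthetases without a match, FARSA, FARSB, LARS1 and VARS1 have values with more digits. The match is a description of letters and says nothing on whether ATF4 bound these promoters here.

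Other genes that answer to ATF4 or to amino acid supply were mostly lower as well. Of 33 genes measured from a list of 34, 20 (60.6%) were lower by at least 1.3-fold and 3 (9.09%) higher, beside 35.7% and 24.6% of all entries, with a median log2 ratio of −0.48. Genes here that act in the sensing of uncharged tRNA, named after their values were seen, were split. EIF2AK4, GCN1 and EIF2S1 were within 1.3-fold, at log2 ratios of 0.08, −0.17 and 0.22, while IMPACT was at −1.38. CHAC1, a glutathione-degrading enzyme induced by ATF4, had 109 FPKM in No-SCI and 13.5 FPKM in SCI, a log2 ratio of −3.02. ATF3, a stress-induced transcription factor, had 246 and 48.6 FPKM, a log2 ratio of −2.34. NUPR1, a small stress-induced chromatin protein, went the other way, at 19.6 FPKM in No-SCI and 373 FPKM in SCI, a log2 ratio of 4.25. ATF4 itself was level at 461 and 470 FPKM, and SLC3A2, the shared chain of several amino acid transporters, had a log2 ratio of −0.26. Among the amino acid synthesis genes of the list, chosen after their values were seen, ASNS (asparagine) had a log2 ratio of −0.69, PHGDH (serine) −1.32 and PSAT1 (serine) −1.68. PHGDH and PSAT1 are abundant in astrocytes, and all 3 measured astrocyte markers were lower too. The part of astrocyte RNA in these values was not tested.

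**Figure D4:**
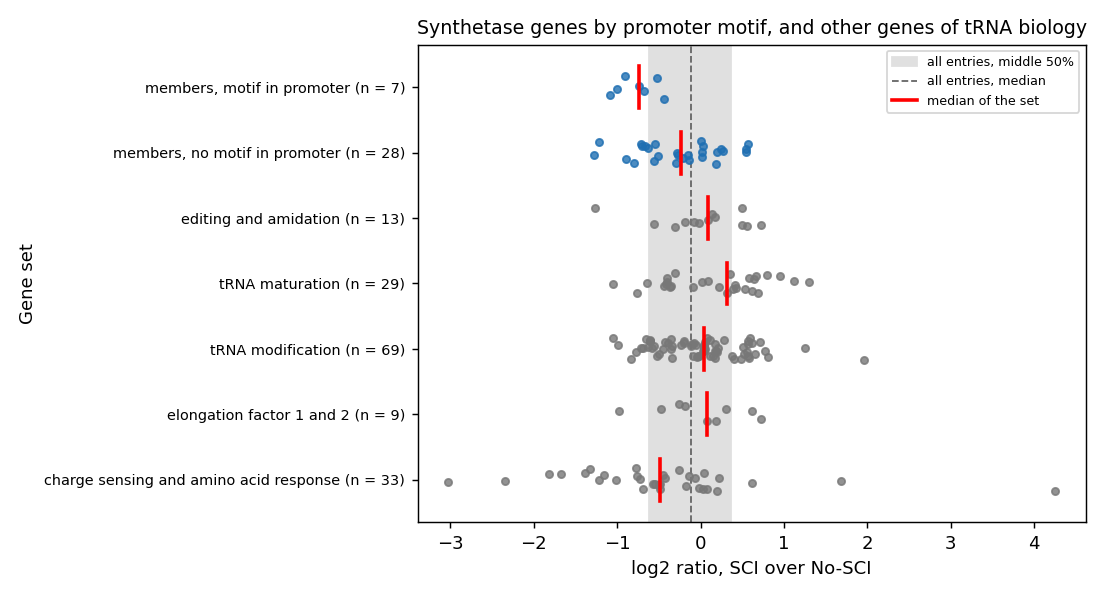
Log2 ratio of SCI to No-SCI (x) of each gene, by set (y), with the set's median as a red bar, the median of all entries dashed and the range between their quartiles in grey. The 7 synthetase genes with the motif all lie below 0, the amino acid response list has its median at −0.48 with points from −3.02 to 4.25, and tRNA maturation has its median at 0.31.

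For the genes that make and modify tRNA the medians were above 0. Of 29 genes measured for tRNA maturation, 13 (44.8%) were higher by at least 1.3-fold and 7 (24.1%) lower, beside 24.6% and 35.7% of all entries, with a median log2 ratio of 0.31. POP5, a protein subunit of RNase P, which trims the 5′ end of tRNA, had 14.6 FPKM in No-SCI and 36.1 FPKM in SCI (log2 ratio 1.302). TSEN54, a subunit of the tRNA splicing endonuclease, had 11.1 and 24.2 FPKM (1.12), and its partner subunit TSEN34 had 414 and 558 FPKM (0.43). POP1, the largest protein of RNase P, differed from POP5 in sign, at 7.22 and 3.48 FPKM (−1.05). RTRAF, part of the tRNA ligase complex, had 289 and 450 FPKM (0.64).

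Of 69 genes measured for tRNA modification, 17 (24.6%) were higher and 18 (26.1%) lower by at least 1.3-fold, beside 24.6% and 35.7% of all entries, with a median log2 ratio of 0.04. The share of higher genes was that of the whole table. TP53RK and YRDC, both needed for the t6A modification, had log2 ratios of 1.96 and 1.26. TPRKB and LAGE3, further proteins of the t6A complex, were the most abundant genes of the list at 327 and 226 FPKM in No-SCI, with log2 ratios of −0.42 and 0.77. For proofreading and amidation of charged tRNA, 4 of 13 measured genes (30.8%) were higher and 2 (15.4%) lower by that fold, beside 24.6% and 35.7% of all entries, with a median log2 ratio of 0.08. PSTK, a kinase in selenocysteine-tRNA synthesis, was the lowest of these (log2 ratio −1.27), while PRORSD1 had a log2 ratio of 0.56. DTD1 and DTD2, which remove D-amino acids from tRNA, were the most abundant, at 149 and 67.4 FPKM in No-SCI with log2 ratios of 0.14 and −0.07.

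Of 9 measured elongation factors of the cytosol and mitochondria, 2 (22.2%) were higher and 2 (22.2%) lower by at least 1.3-fold, beside 24.6% and 35.7% of all entries. Their log2 ratios ran from −0.98 to 0.72, with a median of 0.08. EEF1A1, which carries charged tRNA to the ribosome, had 4378 FPKM in No-SCI and 3658 FPKM in SCI (log2 ratio −0.26). EEF1D and EEF1B2, exchange factors for EEF1A1, were higher, at 1135 and 1874 FPKM (0.72) and at 152 and 233 FPKM (0.62). EEF1D belongs to the heavy EF1 complex with VARS1, whose own log2 ratio was −0.51. GFM2, a mitochondrial ribosome-recycling factor, had 21.6 and 10.98 FPKM (−0.98).

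Markers of the cells in the cord also differed between the groups. All 5 oligodendrocyte markers were lower after SCI, with a summed level of 51842 FPKM in No-SCI and 29845 FPKM in SCI, and so were all 3 measured astrocyte markers (134 and 54.2 FPKM summed) and all 4 measured neuronal markers (140 and 60.4 FPKM summed). Skeletal muscle markers, 5 of 5 lower, were at 201 and 15.1 FPKM summed, although the tissue is labelled spinal cord. All 5 meningeal fibroblast markers were higher, at 44.7 and 715 FPKM summed. Microglia and macrophage markers were split, with 2 higher and 3 lower (738 and 711 FPKM summed), as were endothelial markers, 2 higher and 2 lower (24.1 and 30.1 FPKM summed), and blood markers, 2 higher and 1 lower (537 and 605 FPKM summed). GFAP, AQP4 and SNAP25 were not analysed here. The part of these shifts in the lower synthetase and higher AIMP values was not tested.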

How the data were processed

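RNA-seq of spinal cord supernatant was analysed. The submitters' processing notes name STAR 2.5.4b, Cuffdiff 1.3.0 and the rn6 build. The authors downsampled reads to the smallest library, used Ensembl annotation and upper quartile normalization, and deposited FPKM as 1 group value per condition. The authors' deposited p-value and q-value, their ratio or fold change, and their log2 value were not used, since they are the study's own comparison. No measurement column was left without a group (0 columns).

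Ratios are log2 of the SCI value over the No-SCI value with no pseudocount, and calls mean a fold of at least 1.3. Counts by fold stand beside the share of all 12771 entries. Of the 13 symbols listed more than once, none of them a member, gene lists took the entry whose mean was larger. The table holds no counts, so no counting interval is given. Some genes and a sequence enter the counts but are not reported here. Members and lists were chosen with earlier results of these data known. Any member could be named, and of each tRNA list the 3 with the largest ratio and the 2 most abundant, with exceptions marked in the text. Symbols and promoters were matched to RefSeq GRCr8 for 39 and 35 members, and only these sequences carry coordinates. The scripts were tested on simulated data. No comparison of protein sequences was run. Alternatives were pseudocounts of 1 and 0.1, subtraction of 1, 3 scalings, a mean of at least 5 FPKM, means for medians, other class limits and folds of 1.5 and 2. A left-out library could not be run. A median counted as changed past 0.1 on the log2 scale, and a count past 1.5 times. Python 3.11.15, numpy 2.4.6, pandas 2.3.3 and matplotlib 3.10.9 were used.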

Additional observations from a re-analysis of the deposited data

How the results depend on the processing

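The median log2 ratios of all members, of cytosolic and of mitochondrial synthetases were below 0 under every alternative run, and the gap between the 2 classes reversed under one. As deposited, the median of all entries was itself below 0, at −0.12. No paired analysis was possible because each group has a single value. The median of all members was −0.33 with the median of all entries at 0, −0.34 at the same upper quartile, −0.30 for means of at least 5 FPKM, −0.28 without the 15 members whose values carry more digits than 1 estimate, and −0.28 without the 6 members that overlap a coding gene (the last 2 settings were chosen after the data were seen). For cytosolic synthetases these were −0.36, −0.38, no change with the filter, −0.24 and −0.28. For mitochondrial synthetases the values were −0.48, −0.49 and −0.46 for the first 3 settings and −0.43 without overlapping members, and they were −0.46 with a pseudocount of 1, −0.75 with 1 subtracted and −0.44 as a mean. The gap of cytosolic minus mitochondrial was 0.25 with 1 subtracted, 0.38 without members of more digits, and −0.0145 for means of at least 5 FPKM, a filter that removes low mitochondrial genes. Of the counts, 0 of 39 members were higher by 1.5-fold and 0 by 2-fold, beside 16.9% and 7.96% of all entries. By 2-fold 4 (10.3%) were lower, beside 12.1% of all entries. Without members of more digits, 11 of 24 (45.8%) were lower by 1.3-fold, against 20 of 39 (51.3%) with them and 35.7% of all entries.

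Since the table holds neither counts nor replicate values, no counting limit or spread can be set against any of these values. A level compared between genes rests on FPKM, and for the 15 members whose values may combine several estimates it depends on how many were combined.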
